A study of Mus musculus with 12 samples.

Results

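The 10 genes described here encode transcription factors of the cartilage programme: Sox9, Sox5 and Sox6 (the Sox trio), Runx1, Runx2 and Runx3, Nkx3-2, Mef2c, Foxa2 and Foxa3. They were chosen by gene symbol, and 10 of 10 were found in a table of 17922 genes measured by RNA-seq in cartilage cells (chondrocytes) from mouse ribs. The cells were released from rib cartilage with collagenase and cultured overnight in medium with 10% serum before RNA was extracted. The LDH knockout group (3 samples) came from mice at postnatal day 5 of the genotype Col2-Cre:Ldha(fl/fl):Ldhb+/-, and the LDH control group (3 samples) from their littermates. The Acly knockout group (3 samples) came from Col2-Cre:Acly(fl/fl) mice at E18.5, and the Acly control group (3 samples) from their littermates. All animals were of a mixed strain in which C57BL/6 dominates. The genotype of the controls, including whether they carried Cre or floxed alleles, was not given in the sources used here, nor whether a sample is 1 animal or a pool, so p-values measure the spread between these samples. Col2-Cre is driven by regulatory sequence of the collagen II gene, so cells in the sample that never used it keep the floxed gene, Ldha or Acly, intact. Ldha and Ldhb encode the subunits of lactate dehydrogenase and Acly encodes ATP citrate lyase. The study asked what reduced glycolysis and reduced cytoplasmic acetyl-CoA do to the developing skeleton. In bulk RNA such as this, fewer cells of a type and less RNA per cell cannot be told apart.

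Sox9 is the master regulator of chondrocyte identity, and Sox5 and Sox6, which lack a transactivation domain of their own, bind beside it at cartilage enhancers and strengthen its output. Runx2 and Runx3 drive chondrocytes toward hypertrophy, the enlarged state that precedes bone formation, and Runx2 is also required for osteoblasts, while Runx1 acts earlier in the cartilage lineage. Mef2c, Foxa2 and Foxa3 also promote hypertrophy, and Nkx3-2 is a repressor that holds chondrocytes in the immature state and restrains Runx2.

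The 3 Runx proteins share a DNA-binding domain that recognises the core sequence TGTGGT, and Runx genes carry that sequence in some of their own promoters. Because the balance among the 3 Runx genes is one of the clearer patterns in these samples, the most upstream annotated promoter window of each is shown. Each is the 250 bases before the transcript start in RefSeq on GRCm38.p6, 5′ to 3′ in the direction of the gene, with TGTGGT or its complement in capitals. The Runx1 window lies at chr16:92826075-92826324 on the minus strand, the Runx2 window at chr17:44814628-44814877 on the minus strand, and the Runx3 window at chr4:135120395-135120644 on the plus strand.
Runx1: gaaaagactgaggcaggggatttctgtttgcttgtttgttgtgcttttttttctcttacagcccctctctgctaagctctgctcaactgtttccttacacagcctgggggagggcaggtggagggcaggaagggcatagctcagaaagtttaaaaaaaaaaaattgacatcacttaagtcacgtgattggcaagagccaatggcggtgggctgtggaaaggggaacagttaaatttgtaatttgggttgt
Runx2: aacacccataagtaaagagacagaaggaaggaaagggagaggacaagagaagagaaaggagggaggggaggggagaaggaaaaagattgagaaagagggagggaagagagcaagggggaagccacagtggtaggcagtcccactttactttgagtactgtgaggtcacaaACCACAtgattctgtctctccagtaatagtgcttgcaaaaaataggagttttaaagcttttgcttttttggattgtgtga
Runx3: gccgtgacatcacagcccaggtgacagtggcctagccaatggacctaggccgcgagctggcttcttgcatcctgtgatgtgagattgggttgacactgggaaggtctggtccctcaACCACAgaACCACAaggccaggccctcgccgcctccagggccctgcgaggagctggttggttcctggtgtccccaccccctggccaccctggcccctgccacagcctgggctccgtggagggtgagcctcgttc
The Runx1 window holds no match. The Runx2 window holds 1, whose first base lies at -80 from the start, and the Runx3 window holds 2 side by side, at -134 and -126. RefSeq windows were found for 9 of the 10 genes, 20 windows in all. On either strand, 4 of the 20 windows hold TGTGGT, in 3 of the genes: the Runx2 and Runx3 windows shown and 2 of the Sox6 windows. Over all 32851 promoter windows of this length the share is 14.05%. A match is a description of the letters and not a measured binding site.

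Depth was even, with 26362407 to 28154143 expected counts per sample. Levels between samples are given as counts per 1000000 counts (CPM) after TMM normalization, a scaling that removes differences in RNA composition, and 3 counts correspond to 0.107 to 0.114 CPM. Ldha and Acly followed the labels: Ldha was 86.7 ± 6.64 CPM in LDH knockouts against 845 ± 51.4 CPM in their controls (SD, n = 3), and Acly was 74.2 ± 18.9 CPM in Acly knockouts against 197 ± 4.81 CPM. Ldhb, given as +/- in the LDH knockout genotype, was not lower. It was 15.1 ± 1.14 CPM in LDH knockouts against 11.7 ± 0.529 CPM, higher in every knockout than in every control (log2 0.37, adjusted p = 0.115 by edgeR). Chondrocyte markers summed to 16924 to 25641 CPM in LDH knockouts and 9338 to 10828.5 CPM in LDH controls. In the Acly set they summed to 13061 to 14988 CPM in knockouts and 7388 to 8431 CPM in controls. Acly knockout 2 stood apart on the first principal component, at 35.4 against 60.4 to 70.8 for the other 5 samples at E18.5. Its fibroblast markers summed to 701 CPM against 1965 and 1971 CPM in the other Acly knockouts, and its osteoblast markers to 605 CPM against 1323 and 1346 CPM. The 4 Y-linked genes measured summed to at most 0.0367 CPM in all 3 LDH knockouts, but to 93.0, 102 and 0.590 CPM in LDH controls 1 to 3. The Y-linked sum and the genotype therefore nearly coincide in the LDH set. For Acly, 2 of 3 knockouts and 1 of 3 controls had sums above 70 CPM.

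Sox9 was by far the most abundant of the 10 transcripts. On the authors' TPM scale, which corrects for transcript length and allows genes to be compared, it averaged 268 ± 27.8 TPM in LDH controls, 348 ± 42.4 TPM in LDH knockouts, 288 ± 6.33 TPM in Acly controls and 318 ± 56.1 TPM in Acly knockouts (SD, n = 3). That places Sox9 between rank 377 and rank 543 of 17922 genes. Runx3 followed in LDH controls at 32.6 ± 0.494 TPM, then Runx1 at 26.4 ± 1.39 TPM, Sox6 at 19.8 ± 3.03 TPM and Runx2 at 14.2 ± 2.19 TPM. Foxa2, Sox5, Foxa3 and Mef2c lay between 2.14 and 5.82 TPM there. In Acly controls the order below Sox9 was another: Runx2 led at 24.1 ± 3.38 TPM, followed by Runx1 at 20.5 ± 0.789 TPM, with Sox6 at 18.51 ± 2.29 TPM and Runx3 at 18.0 ± 0.959 TPM closer together than their SDs. Nkx3-2 was the lowest of the 10 in every group, at 0.117 to 0.443 TPM on average.

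**Figure D1:**
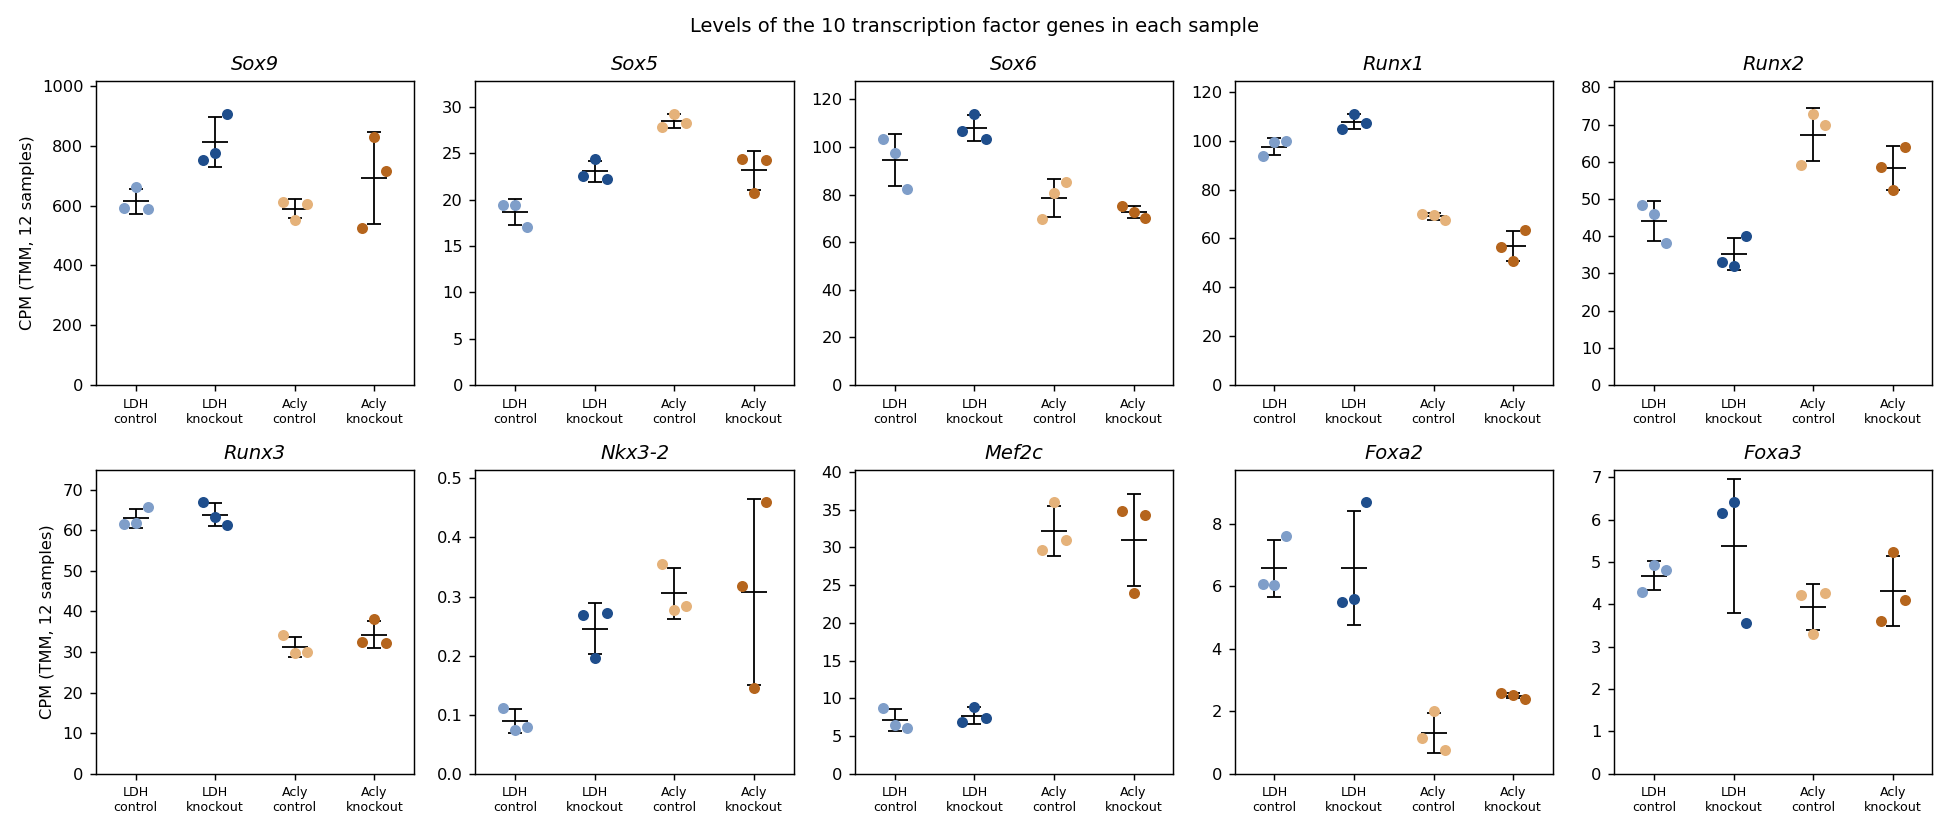
Level of each of the 10 genes in every sample, in CPM scaled over all 12 samples (vertical axis, from 0, own range per gene), for the 4 groups along the horizontal axis; points are samples, and the black mark and bar are the mean and SD of 3. Sox9 sits at 752 to 907 CPM in LDH knockouts and 589 to 662 CPM in LDH controls, Mef2c is higher in both Acly groups, and Runx3 and Foxa2 are higher in both LDH groups.

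None of the 9 genes tested passed the threshold in either knockout, but Sox9 came nearest in the LDH knockout. Its level was 710.2, 735 and 856 CPM in LDH knockouts 1 to 3 and 558, 625 and 560.0 CPM in LDH controls 1 to 3. Every knockout lay above every control. The fold was 1.32 (95% interval 1.13 to 1.54; log2 0.40 ± 0.10 SE; edgeR, adjusted p = 0.0650), a difference that did not pass 0.05 after adjustment over the 13321 genes tested. DESeq2 on the same counts gave the same size of difference, 0.40 on the log2 scale, with an adjusted p of 0.00274. With the Y-linked sum as a covariate the edgeR estimate was 0.50 with an adjusted p of 0.319. LDH control 3, which has the low Y-linked sum, was below all 3 knockouts, as the absence of overlap already implies.

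Sox9 in the Acly set was 552, 902 and 757 CPM in knockouts 1 to 3 and 642, 583 and 637 CPM in controls 1 to 3. The knockouts spread widely, with 1 below all controls and 2 above them. The log2 difference was 0.25 ± 0.16 SE with a 95% interval of -0.12 to 0.61 (edgeR, adjusted p = 0.445). Without Acly knockout 2, the sample with few fibroblast and osteoblast transcripts and the highest Sox9, the difference was 0.08. The part of that sample's cell makeup in the Sox9 value was not tested.

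Sox5, the partner of Sox6, had estimates of opposite sign in the 2 knockouts without passing the test in either. It measured 21.3, 23.1 and 21.0 CPM in LDH knockouts against 18.3, 18.3 and 16.3 CPM in LDH controls, and the groups did not overlap. The log2 difference was 0.30 ± 0.10 SE (edgeR, adjusted p = 0.138). The Acly knockouts had 25.6, 22.5 and 25.7 CPM against 29.2, 30.9 and 29.8 CPM in their controls, with every knockout below every control. That log2 difference was -0.28 ± 0.10 SE (edgeR, adjusted p = 0.265). Fibroblast markers summed to 701 to 1971 CPM in Acly knockouts and 2391 to 2903 CPM in Acly controls. Of these markers 4 of 6 lay lower without overlap, beside 11.3% of all genes. The part of fibroblast RNA in the Acly values was not tested.

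Sox6 did not pass in either set. The LDH knockouts had 100.6, 108 and 97.5 CPM and the controls 97.4, 92.1 and 78.4 CPM, so the lowest knockout and the highest control almost touched, and when all 12 samples were scaled together the groups overlapped. The log2 difference was 0.19 with a 95% interval of -0.02 to 0.40. The Acly knockouts had 79.0, 78.7 and 74.3 CPM and the controls 73.1, 85.0 and 90.0 CPM, which overlapped, with a difference of -0.10 and an interval of -0.32 to 0.13. Sox5 made up 19.2 ± 1.05% of the summed Sox5 and Sox6 TPM in LDH controls and 19.9 to 20.2% in the 3 LDH knockouts, and 30.5 ± 2.03% in Acly controls against 27.7 ± 1.71% in Acly knockouts (SD, n = 3). These shares overlapped between knockout and control in both sets.

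Among the Runx genes, Runx2 was the 1 gene of the 9 tested with a negative estimate in the LDH knockout, where Foxa2 was at 0.00. It was 31.3, 30.5 and 37.8 CPM in LDH knockouts and 45.5, 43.5 and 36.2 CPM in LDH controls. Knockout 3 lay above control 3, the control with the low Y-linked sum, so the groups overlapped. The log2 difference was -0.33 ± 0.11 SE with a 95% interval of -0.59 to -0.07 (edgeR, adjusted p = 0.155). With the Y-linked sum as a covariate it was 0.00 (edgeR, adjusted p = 0.998). Osteoblast markers, which share this factor, summed to 85.6 to 111 CPM in LDH knockouts and 154 to 273 CPM in LDH controls. Of the 8 markers, 6 were tested and 4 were lower without overlap, beside 12.5% of all genes. Among these 4, Sp7, Bglap and Bglap2 are also on the list of Runx2 targets described below. Dmp1, a marker of mature bone cells, was at or under the floor in both groups. The part of osteoblast RNA in the Runx2 value was not tested.

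Runx2 in the Acly set was 61.6, 56.8 and 67.6 CPM in knockouts and 62.1, 77.0 and 73.6 CPM in controls, which overlapped, with a log2 difference of -0.19 and an interval of -0.44 to 0.06. Runx1, the family member that acts early, was 99.1, 105 and 101 CPM in LDH knockouts and 88.1, 93.7 and 94.95 CPM in LDH controls. Those groups did not overlap, although the difference was only 0.14 on the log2 scale with an interval of -0.02 to 0.30 (edgeR, adjusted p = 0.301). Runx1 in the Acly set was 59.5, 55.1 and 66.8 CPM in knockouts and 73.3, 73.6 and 71.1 CPM in controls. Every Acly knockout was below every control, by 0.26 ± 0.09 SE in log2 units (a difference of -0.26; edgeR, adjusted p = 0.266). Runx3 was 57.8 to 63.1 CPM in LDH knockouts and 57.9 to 62.5 CPM in LDH controls, an overlap almost from end to end, with a 95% interval of -0.15 to 0.19 on the log2 scale. Its Acly values, 34.0 to 41.4 CPM in knockouts and 31.3 to 35.8 CPM in controls, overlapped too.

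The 3 Runx transcripts together amounted to 73.2 ± 3.01 TPM in LDH controls and 72.1 ± 1.70 TPM in LDH knockouts, and to 62.7 ± 3.36 TPM in Acly controls and 54.9 ± 4.41 TPM in Acly knockouts (SD, n = 3). Runx2 made up 16.6 to 21.4% of that sum in LDH controls and 14.6 to 17.2% in LDH knockouts, so the shares overlapped. Its share was 34.3 to 40.7% in Acly controls and 33.6 to 37.8% in Acly knockouts. The Runx1 share was 34.4 to 37.2% in LDH controls and 38.2 to 40.7% in LDH knockouts, without overlap, and 32.3 to 33.7% in Acly controls and 27.4 to 31.4% in Acly knockouts, again without overlap and the other way. Set against Sox9, the TPM ratio of Sox9 to Runx2 was 16.8, 19.5 and 21.0 in LDH controls and 30.6, 31.0 and 31.2 in LDH knockouts. The knockouts were nearly identical in this ratio and all lay above the controls. This ratio sets Sox9, the tested gene with the highest LDH estimate, over Runx2, the one with the lowest. The choice of genes therefore favours a separation. Sox9 over summed Sox5 and Sox6 TPM was 9.74 to 11.96 in LDH controls and 11.37 to 14.59 in LDH knockouts. These ranges overlapped. The ratio of Sox9 to Runx2 was 14.1, 10.4 and 11.7 in Acly controls and 12.2, 21.5 and 15.4 in Acly knockouts, which overlapped. These ratios were computed from levels already shown and were not tested.

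**Figure D2:**
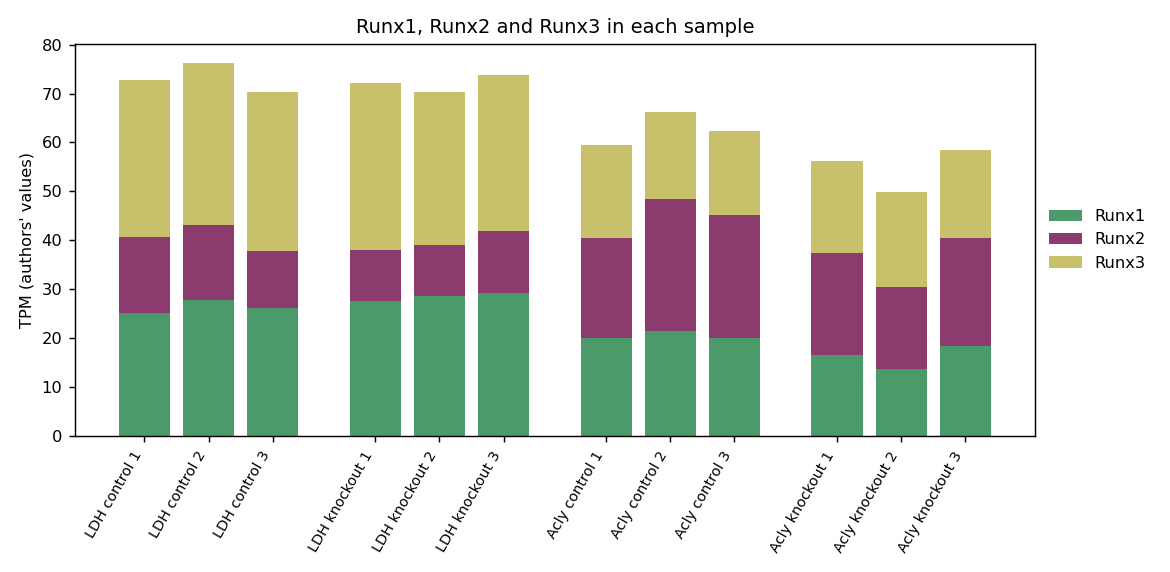
Stacked bars of the authors' TPM for Runx1, Runx2 and Runx3 (vertical axis, from 0) in each of the 12 samples along the horizontal axis, grouped by genotype and age. Runx3 is the largest segment in all 6 LDH samples, at 43.1 to 47.2% of the sum, and Runx2 is the largest in 5 of the 6 Acly samples.

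Of the other 4 factors, Mef2c, an activator of hypertrophy genes, had 6.43, 8.42 and 7.02 CPM in LDH knockouts and 8.25, 6.07 and 5.74 CPM in LDH controls, which overlapped. It was 36.6, 26.05 and 36.2 CPM in Acly knockouts and 31.1, 38.0 and 32.7 CPM in Acly controls, with the lowest value again in Acly knockout 2. The 95% intervals of the log2 differences were -0.28 to 0.52 and -0.37 to 0.29.

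Foxa2 had the largest estimate of any of these genes in either knockout. It was 2.71, 2.72 and 2.54 CPM in Acly knockouts and 1.19, 2.13 and 0.786 CPM in Acly controls, from 68 to 73 counts against 21 to 58. Every knockout lay above every control, and the controls varied much more than the knockouts. The fold was 1.94 (95% interval 1.13 to 3.32; log2 0.95; edgeR, adjusted p = 0.268). Over the alternatives the log2 difference ran from 0.46, by limma on log2(FPKM + 1), to 1.42, without Acly control 2. In the LDH set Foxa2 was 5.19, 5.29 and 8.19 CPM in knockouts and 5.72, 5.69 and 7.25 CPM in controls, which overlapped around equal means, with an interval of -0.46 to 0.46 on the log2 scale.

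Foxa3, its relative, overlapped between knockout and control in both sets, at 3.36 to 6.08 against 4.04 to 4.66 CPM in the LDH set and 3.79 to 5.68 against 3.48 to 4.49 CPM in the Acly set. Nkx3-2 did not pass the filter on low counts and was not tested. It had 5 to 7 counts in LDH knockouts, 2 to 3 in LDH controls, 4 to 13 in Acly knockouts and 8 to 10 in Acly controls. LDH control values, 0.0706 to 0.105 CPM, were at or under the floor of 3 counts, so no fold is given for that set.

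Counted together, 0 of the 9 tested genes were called in the LDH knockout by edgeR at an adjusted p under 0.05, where 2.49% of all 13321 genes were, and 0 of 9 in the Acly knockout, where 0.136% of 13973 were (0.0573% higher, 0.0787% lower). At an unadjusted p under 0.05 there were 3 in each: Sox9, Sox5 and Runx2 in the LDH set, and Sox5, Runx1 and Foxa2 in the Acly set. The shares of all genes at that level were 19.6% and 15.8%. DESeq2 called 1 of the 9 in the LDH set, Sox9, and 0 in the Acly set, where it called 6.77% and 1.77% of all genes. Groups did not overlap for 4 of 9 in the LDH set (Sox9, Sox5, Sox6 and Runx1, all higher), beside 24.3% of all genes, 11.9% higher and 12.5% lower, and for 3 of 9 in the Acly set (Foxa2 higher, Sox5 and Runx1 lower), beside 22.0%, 10.7% higher and 11.3% lower. The median log2 difference of the 9 was 0.14 in the LDH set and -0.04 in the Acly set, where that of all genes was 0.01 and 0.00.

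Whether the 2 knockouts differ in their effect was tested directly, as the LDH effect minus the Acly effect over all 12 samples; the gene deleted and the age cannot be told apart in it. By edgeR 0 of 9 genes passed, beside 0.161% of 14251. Sox5 came nearest, with a difference of 0.60 ± 0.13 SE on the log2 scale and a 95% interval of 0.32 to 0.89 (edgeR, adjusted p = 0.0992), and DESeq2, which called 1.49% of all genes, gave it an adjusted p of 0.0123. Runx1 followed with 0.42 ± 0.11 SE (edgeR, adjusted p = 0.185), then Foxa2 with -0.93 and Sox6 with 0.30. These 4 were the ones with an unadjusted p under 0.05, as were 13.0% of all genes. For Sox9 the difference was 0.17 with an interval of -0.24 to 0.59, wide enough to hold both no difference and one larger than the LDH effect itself.

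**Figure D3:**
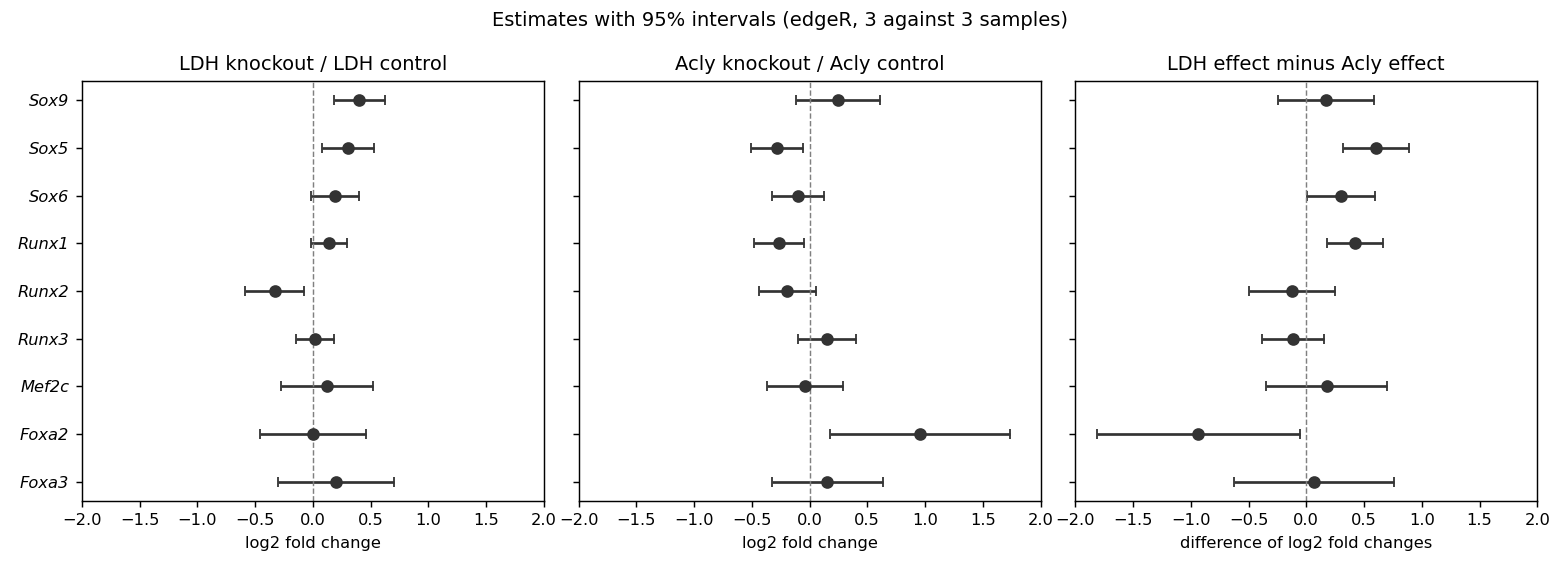
Estimated log2 fold change of 9 genes (rows) in the LDH knockout, in the Acly knockout, and the difference between both effects (panels, horizontal axes in log2 units); points are edgeR estimates and bars 95% intervals before adjustment. Sox9 lies above 0 in the left panel, from 0.18 to 0.62, while Sox5 is above 0 on the left, below 0 in the middle, and at 0.60 on the right.

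The control groups differed most in Mef2c and Foxa2, by more than 2 log2 units in each. Between these groups age, mouse line and any separate handling of the sets coincide and cannot be told apart. On a common scale of 12 samples, Mef2c was 32.2 ± 3.32 CPM in Acly controls at E18.5 and 7.08 ± 1.47 CPM in LDH controls at postnatal day 5, a 4.55-fold difference (edgeR, adjusted p = 9.93e-07). Foxa2 was 1.30 ± 0.650 CPM against 6.58 ± 0.905 CPM, or -2.33 on the log2 scale (edgeR, adjusted p = 2.95e-05). Both were separated without overlap.

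The Runx family split between the controls. Runx2 was higher in Acly controls, 67.3 ± 7.22 against 44.2 ± 5.39 CPM (log2 0.61 ± 0.12 SE; edgeR, adjusted p = 8.78e-04). Runx3 was lower, 31.3 ± 2.48 against 63.0 ± 2.34 CPM (log2 -1.01 ± 0.09 SE; edgeR, adjusted p = 1.59e-06), and so was Runx1, 69.0 ± 1.36 against 97.6 ± 3.47 CPM (log2 -0.50 ± 0.08 SE; edgeR, adjusted p = 1.81e-04). None of the 3 overlapped.

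The Sox trio split as well. Sox5 was higher in Acly controls, 28.5 ± 0.725 against 18.7 ± 1.36 CPM (log2 0.61 ± 0.09 SE; edgeR, adjusted p = 1.21e-04). Sox6 was lower by 0.27 in log2 units (a difference of -0.27; edgeR, adjusted p = 0.0310), but its groups overlapped, and the call was lost without TMM scaling, where the difference was -0.09. Sox9 was 589 ± 32.3 against 615 ± 41.2 CPM and overlapped, with an interval of -0.35 to 0.23; without TMM scaling its sign turned, at 0.11. In all, 7 of 9 were called (77.8%), 3 higher and 4 lower, where 55.0% of all 14251 genes were, 29.4% higher and 25.7% lower. Groups did not overlap for 7, 3 higher and 4 lower, beside 65.4% of all genes, 34.7% higher and 30.7% lower; these 7 include Foxa3, which was not called, and leave out Sox6.

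Markers of other cell types also lay apart between the control groups, where 65.4% of all genes did not overlap (34.7% higher, 30.7% lower in Acly controls). Apart from Col2a1, the markers counted below as not overlapping were all higher in Acly controls. Muscle markers summed to 347 to 455 CPM in Acly controls and 22.1 to 40.0 CPM in LDH controls, and 10 of 10 did not overlap. Endothelial markers summed to 107 to 124 and 12.3 to 17.5 CPM (7 of 7), fibroblast markers to 2391 to 2903 and 372 to 686 CPM (6 of 6), leukocyte markers to 130 to 143 and 52.1 to 75.8 CPM (7 of 9 tested), and osteoblast markers to 1197 to 1525 and 154 to 273 CPM (5 of 7 tested). Fat markers summed to 339 to 367 and 72.1 to 86.1 CPM (5 of 9 tested), and red cell markers to 70.9 to 97.4 and 20.6 to 34.1 CPM (5 of 5 tested). The T cell gene Cd3e was at or near 0 in both. Of 8 chondrocyte markers tested, 6 lay higher without overlap in Acly controls and 1, Col2a1, lay lower. The chondrocyte markers summed to 7388 to 8431 CPM in Acly controls and 9338 to 10828.5 CPM in LDH controls. Mef2c is also known from muscle, endothelium and leukocytes, and Runx1 to Runx3 from blood cells and bone; the part of these cells in the values above was not tested.

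Genes that the Sox trio is known to activate rose in both knockouts, 13 of 16 tested in the LDH set and 4 of 17 in the Acly set. The list of 17 cartilage matrix genes was drawn up with earlier results of these data known, so its direction is no independent evidence. In the LDH knockout the 13 passed an adjusted p under 0.05 (edgeR), where 1.43% of all genes rose, and none fell. All 16 lay higher without overlap, beside 11.9% of all genes. The median fold of the 16 was 2.67, where the median log2 difference of all genes was 0.01. Col27a1, a fibrillar collagen of cartilage, was 104 ± 45.0 against 17.1 ± 3.85 CPM (log2 2.60 ± 0.28 SE; edgeR, adjusted p = 0.00316). Acan, the gene of aggrecan, was 1858 ± 292 against 795 ± 101 CPM (log2 1.22 ± 0.13 SE; edgeR, adjusted p = 0.00351). Col2a1, which encodes collagen II and whose regulatory sequence drives the Cre, was 18466 ± 4365 against 9113 ± 818 CPM (log2 1.02 ± 0.16 SE; edgeR, adjusted p = 0.0123).

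The others that passed in the LDH set were Snorc (log2 1.45), Scrg1 (2.22), Col11a1 (1.21), Matn3 (1.83), Col9a1 (1.55), Cnmd (1.70), Mia (1.39), Matn4 (1.47), Col11a2 (0.95) and Col9a3 (0.74), all log2 differences for genes of the cartilage matrix or secreted by chondrocytes. For comparison, the log2 difference of Sox9 was 0.40 and that of Sox5 0.30. With the Y-linked sum as a covariate 0 of the 16 passed, as 3 genes of the whole table did. The control with a low Y-linked sum was below all 3 knockouts for all 16, which follows from the absence of overlap and adds nothing to it. Leaving out a library gave 6 to 15 calls, the fewest without LDH control 3, and 8 without LDH knockout 2, LDH control 1 or LDH control 2.

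In the Acly knockout 4 of the 17 rose and none fell (edgeR), beside 0.0573% and 0.0787% of all genes, with a median fold of 1.60. In the same set 4 of 6 fibroblast markers and 3 of 10 muscle markers were lower without overlap, beside 11.3% of all genes. The median log2 differences of the 2 marker lists were -0.51 and -0.48, and the part of these cells in the rise was not tested. Comp, a matrix protein gene of cartilage and tendon, was 163 ± 0.963 against 79.6 ± 7.36 CPM (log2 1.03 ± 0.09 SE; edgeR, adjusted p = 0.00722). Col2a1 was 11922 ± 1283 against 5767 ± 292 CPM (log2 1.05 ± 0.11 SE; edgeR, adjusted p = 0.0138). Col27a1 and Col9a3 were the other ones, at 1.05 and 0.75 on the log2 scale. Hapln1, which links aggrecan to hyaluronan, was at -0.08 and was the 1 gene of the list with a negative estimate. The count fell to 0 without any 1 of the Acly controls, to 1 or 2 without Acly knockout 3 or 1, and was 8 without Acly knockout 2. The difference between both knockouts passed for 0 of the 17 genes by edgeR, beside 0.161% of all genes, and 8 had an unadjusted p under 0.05.

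Of 12 genes that Runx2 is known to activate, 4 were called in the LDH knockout, 1 higher and 3 lower, beside 1.43% and 1.07% of all genes. Col10a1, the collagen of hypertrophic cartilage, was 265 ± 72.1 against 81.6 ± 29.8 CPM and rose (log2 1.70 ± 0.26 SE; edgeR, adjusted p = 0.0118). The 3 that fell were Sp7, Bglap2 and Spp1, of which Sp7 and Bglap2 are also on the osteoblast marker list. Spp1 averaged 10163 TPM in LDH controls, rank 3 of all genes, where Bglap2, the highest of the osteoblast markers, averaged 114 TPM. Of the 6 osteoblast markers tested, 4 lay lower without overlap, beside 12.5% of all genes. Sp7, Bglap and Bglap2 are among those 4 and are on both lists, so the marker count is not separate from the targets. Alpl (log2 0.06) and Ibsp (-0.26), also on both lists, overlapped between knockout and control. The part of osteoblast RNA in these values was not tested. Sp7, the osteoblast factor that acts after Runx2, was 8.41 ± 2.62 against 19.6 ± 2.10 CPM (log2 -1.22 ± 0.20 SE; edgeR, adjusted p = 0.0164). Spp1, the gene of osteopontin, was 3618 ± 1080 against 7276 ± 1246 CPM (log2 -1.01 ± 0.21 SE; edgeR, adjusted p = 0.0384). Bglap2, an osteocalcin gene that shares reads with its near-identical copy Bglap and is uncertain for that reason, was at -2.40 (edgeR, adjusted p = 0.0156). The median of the 12 was -0.19. None of the 12 passed with the Y-linked covariate or without LDH control 3, and 2 passed without LDH knockout 1, LDH knockout 2 or LDH control 1.

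In the Acly knockout Col10a1 was the 1 of 12 that passed, 54.5 ± 6.50 against 26.8 ± 3.52 CPM (log2 1.02 ± 0.13 SE; edgeR, adjusted p = 0.0314). It did not pass without TMM scaling, on the FPKM scale, with the Y-linked covariate, or without any 1 library other than Acly knockout 2, where 5 of the 12 passed. Mmp13, a collagenase of late hypertrophy, was 62.1 ± 11.6 against 132 ± 24.4 CPM, Ihh, the signal that paces hypertrophy, 5.50 ± 0.745 against 2.08 ± 0.647 CPM, and Panx3, a channel protein of hypertrophic cells, 25.0 ± 8.73 against 15.2 ± 0.879 CPM. Mmp13 was lower and the other two higher in all 3 knockouts than in all 3 controls, with adjusted p of 0.0694, 0.101 and 0.244 by edgeR. The Runx2 targets thus differed in sign among themselves in both sets.

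**Figure D4:**
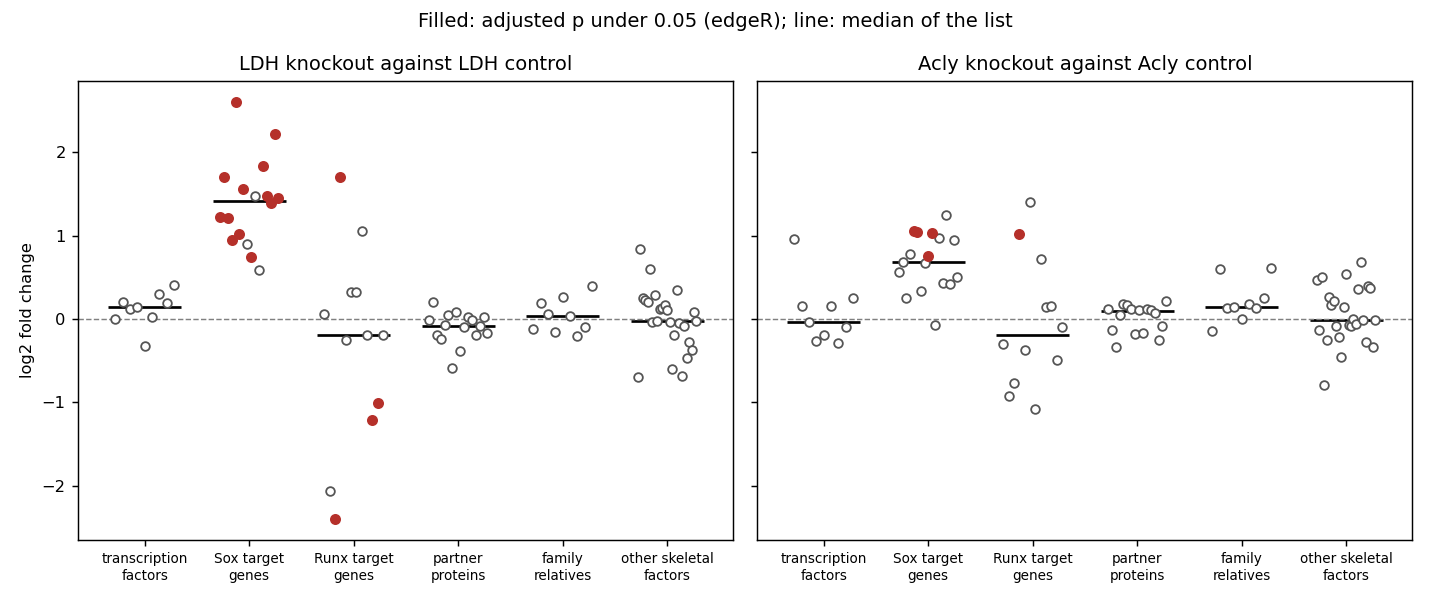
Log2 fold changes (vertical axis) of the tested genes of 6 lists (horizontal axis) in the LDH knockout (left) and the Acly knockout (right); each point is a gene, filled where the edgeR adjusted p is under 0.05, and the black line is the list's median. The Sox target genes lie above 0, at a median of 1.42 on the left and 0.68 on the right, while the transcription factors have medians of 0.14 and -0.04 and none filled.

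None of 16 partner proteins of these factors passed in either knockout (edgeR). At an unadjusted p under 0.05 there were 2 of 16 in the LDH set and 3 of 16 in the Acly set, beside 19.6% and 15.8% of all genes. In the LDH set the lowest p belonged to Smad3, a TGF-beta mediator, at -0.39 in log2 units (edgeR, adjusted p = 0.111), and to Hdac4, a deacetylase that restrains Runx2 and Mef2c, at -0.24. Both lay lower in every knockout than in every control, and so did Ppargc1a, a Sox9 coactivator, at -0.59. In the LDH set these 3 of 16 partners lay lower without overlap, beside 12.5% of all genes, and none lay higher. Arid5b, which works with Sox9, was at 0.20 and overlapped. In the Acly set Cbfb, the subunit that stabilises Runx proteins on DNA, was 168 ± 5.41 against 213 ± 25.7 CPM, and Wwtr1, a Runx2 coregulator, 182 ± 15.2 against 217 ± 8.28 CPM. Zfp219 (0.21), a Sox9 partner, and Hdac5 (0.17) had positive log2 differences there. These 4, picked by lowest p, were separated without overlap. Of all 16 partners in the Acly set, 3 lay higher and 3 lower without overlap, beside 10.7% and 11.3% of all genes.

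Of 9 tested relatives by family, 0 passed in either set by edgeR, beside 2.49% and 0.136% of all genes. At an unadjusted p under 0.05 there were 1 and 3, beside 19.6% and 15.8%. Sox8, the closest relative of Sox9 beside Sox10, was 7.22 ± 0.428 against 5.48 ± 0.549 CPM in the LDH set (log2 0.40; edgeR, adjusted p = 0.167) and 12.2 ± 0.932 against 7.98 ± 0.769 CPM in the Acly set (0.61; edgeR, adjusted p = 0.180). It lay higher in all 3 knockouts than in all 3 controls of both sets. Of the 9 relatives, 1 lay higher without overlap in the LDH set and 3 in the Acly set, beside 11.9% and 10.7% of all genes. None lay lower without overlap in either set. Sox11 (0.26), Sox13 (-0.21) and Mef2a (-0.12) in the LDH set overlapped. Sox4 (0.25) and Mef2b (0.60) in the Acly set did not overlap, and Sox12 (0.17) overlapped.

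Among 25 tested factors of skeletal patterning and cartilage, 0 passed in either set by edgeR, with 4 and 6 at an unadjusted p under 0.05, beside 19.6% and 15.8% of all genes. In the LDH set Prrx1, a limb mesenchyme factor, was 178 ± 26.5 against 247 ± 22.5 CPM (log2 -0.47; edgeR, adjusted p = 0.0650) and Foxc1, a forkhead factor of skeletal progenitors, 101 ± 16.7 against 67.0 ± 12.7 CPM (log2 0.60; edgeR, adjusted p = 0.0706). Pax1, a factor of the sclerotome, was at -0.69 and Barx2 at 0.84. These 4, picked by lowest p, did not overlap between knockout and control. Of all 25, 3 lay higher and 3 lower without overlap, beside 11.9% and 12.5% of all genes. For Acly the 4 genes of lowest p were Pax1 at 15.8 ± 2.75 against 9.80 ± 0.943 CPM (log2 0.68; edgeR, adjusted p = 0.190), Hif1a, the oxygen-sensing factor, at 213 ± 29.7 against 292 ± 33.4 CPM (log2 -0.46; edgeR, adjusted p = 0.230), Foxc1 (0.26) and Dlx5 (0.51). None of these 4 overlapped either. Of all 25 tested in the Acly set, 3 lay higher and 2 lower without overlap, beside 10.7% and 11.3% of all genes. Pax1 had estimates of opposite sign in the 2 knockouts.

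As a description of likeness, each of Sox9, Sox5, Sox6 and Runx2 was compared with 10557 genes by the root mean square difference of log2 CPM over 12 samples, centred within each set of 6. Nearest to Sox9 were Sdk2 at 0.086, Anxa11 at 0.102 and Ccdc120 at 0.104, where the median gene was at 0.271. For Sox5 they were Igf1r, Mbnl1 and Net1, at 0.063 to 0.065 against a median of 0.224, and for Sox6 Ube2d3, Vldlr and Asnsd1, at 0.059 to 0.066 against 0.196. For Runx2, Smarcad1 was nearest at 0.031, then Cog3 at 0.060 and Rab5a at 0.068, against a median of 0.241.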

How the data were processed

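RNA from 12 samples of mouse rib chondrocytes was sequenced by BGI after oligo(dT) selection, per the labels' protocols. The submitters' processing notes name HISAT2 2.0.4 and the mm9 build; the counting program, annotation and use of strand are not given in the sources used here, so overlapping and antisense genes are uncertain. The deposited table of 17922 genes holds counts, FPKM and TPM per the file headers. Between 7.32% and 8.16% of the values in a sample's count column are not whole, so these were treated like estimated counts and rounded. The method by which the authors obtained the expected counts is not given in the sources used here. The TPM values deposited by the authors were used to compare genes, and the FPKM values deposited by the authors for an alternative test.

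Knockout and littermate control were fitted as sets of 6 samples with edgeR 4.0.16 in R 4.3.3 (TMM, filterByExpr, two-sided quasi-likelihood F test, Benjamini-Hochberg adjustment over all genes tested, threshold 0.05). Effect differences and controls came from a fit of all 12 samples. The SE is the log2 fold change divided by the square root of F, and 95% intervals are unadjusted. Replicates of a group are the samples the titles number 1 to 3, and none agreed within sampling noise. Floors cover counting error only. The fit was tested on simulated data. Promoter windows came from RefSeq, GRCm38.p6, and no coordinates were converted from mm9.

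Alternatives were DESeq2 1.42.0 and its size factors, no TMM, no filter or at least 1 CPM in 3 samples, limma 3.58.1 on log2(FPKM + 0.1) or log2(FPKM + 1), a replicate block, a Y-linked covariate, all 12 samples in the fit, and each library left out. The 10 genes and all lists were chosen with earlier results of these data known. Named from each list are the genes past the threshold and the 4 of lowest p in each knockout comparison.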

Additional observations from a re-analysis of the deposited data

How the results depend on the processing

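No setting made more than 1 of the 9 tested genes pass in a knockout or in the difference between effects: DESeq2 called Sox9 in the LDH set (1 gene) and Sox5 in the difference (1 gene), and leaving out a library called 0 in each. The controls had 5 to 8 called genes, 6 to 8 with a library left out; Sox6 lost its call in 9 of 15 alternatives and Runx2 in 1 of 15. Counts over all genes moved more. In the LDH set they were 902 by DESeq2, 3 with the Y-linked covariate and 95 to 1068 with a library left out, with 0 Sox targets and 0 Runx targets under the covariate, and 6 to 15 and 0 to 5 without a library. In the Acly set they were 247 by DESeq2 (8 Sox and 4 Runx targets), 11 without TMM (2 and 0), 32 without a filter (2 Runx targets), 6 with the covariate (2 and 0), 31 in the fit of all 12 samples (1 Sox target) and 0 to 132 without a library (0 to 8 and 0 to 5); limma on FPKM called 0 Runx targets with either pseudocount. The difference between effects gave 213 genes by DESeq2, 6 with the covariate and 5 to 143 without a library, and the controls 6705 to 7127 without a library. Same-numbered samples did not deviate together (correlations 0.05, -0.16 and 0.01 in the LDH set and 0.00, -0.21 and -0.22 in the Acly set), so the replicate numbers were not taken as pairing; with the number as a replicate block 362 genes passed in the LDH set, 8 in the Acly set (1 Sox target), 5 in the difference and 4177 between controls. The sign of some estimates turned. Foxa2 in the LDH set was -0.00061, -0.0065 and -0.00069 (size factors, no TMM, DESeq2), -0.019 with the block, -0.036 and -0.024 on FPKM, -0.30 with the covariate, and -0.25 to 0.13 with a library left out. With the covariate Runx2 was 0.00095, Runx3 -0.094 and Mef2a 0.14 in the LDH set, and Runx2 0.054 in the difference. With a library left out Runx3 ranged from -0.011 to 0.053 in the LDH set, Mef2c from -0.12 to 0.10 and Foxa3 from -0.024 to 0.28 in the Acly set, and Foxa3 from -0.080 to 0.29 in the difference. Sox9 between controls was 0.11 without TMM and 0.11 with either pseudocount on FPKM. The causes were not tested. Without TMM the controls' calls split 5492 higher to 2091 lower, against 4184 to 3660, and the median of all genes was 0.19.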

Other observations

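Markers of fat cells were higher in the LDH knockouts. Of the 10 markers 8 were tested, 5 rose and 0 fell (edgeR), and 6 lay higher without overlap, beside 1.43% of all genes that rose and 11.9% that lay higher without overlap. Their sum was 97.7 to 131 CPM in LDH knockouts and 72.1 to 86.1 CPM in LDH controls. Adipoq, the gene of the hormone adiponectin, was 1.07 to 6.52 CPM against 0.221 to 0.462 CPM, and Plin1, a coat protein of lipid droplets, 2.68 to 7.33 CPM against 0.107 to 0.216 CPM. Cebpa, a factor of fat cell differentiation, was the other way, at 24.6 to 28.03 CPM against 29.4 to 39.6 CPM. In the Acly set 0 of 8 tested fat markers passed (edgeR).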
